A study of Mus musculus with 84 samples.

Results

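The 10 genes described here belong to the FGF-ERK signalling pathway and its feedback control. They are the ligand gene Fgf4, the receptor genes Fgfr1 and Fgfr2, the ERK phosphatase gene Dusp6, the Sprouty genes Spry1, Spry2 and Spry4, the Sprouty-related gene Spred1, and the ETS transcription factor genes Etv4 and Etv5. They were looked up by symbol, and all 10 were found among the 18909 genes of the count table. Expression in 10 groups of 3 biological replicates had been measured by STRT RNA-seq, in which reads come from the 5′ ends of transcripts. The wells of a replicate were summed to 1 library.

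MEFs were wild-type mouse embryonic fibroblasts, cultured with heparin (1 ng/ml) and FGF2 (5 ng/ml) and without LIF. ESCs were the TNG MKOS line, an ESC line with GFP in 1 Nanog allele and the reprogramming factors c-Myc, Klf4, Oct4 and Sox2 (MKOS) under doxycycline control, linked to mOrange, kept with 100 U/ml LIF and without FGF2 or heparin. Reprogramming cells were MEFs of chimeric embryos made with that line. They were grown among wild-type MEFs, infected with a pMXs retrovirus for blue fluorescent protein (Cont) or for Smad3CA, a constitutively active SMAD3 (Sm3CA), and given 300 ng/ml doxycycline and vitamin C in ESC medium with 100 U/ml LIF. They were sorted for mOrange on days 3, 6, 8 and 10. All groups are of the 129 background, and the ESCs and the reprogramming cells go back to the same line. MEFs differed from the reprogramming cells in FGF2, heparin, LIF, doxycycline and vitamin C, and also in the cassette, the virus and the sort. The parts of these in any difference from MEFs cannot be told apart. Each day had its own plate rows, apart from days 6 and 8, which shared theirs, so row cannot be told apart from day in the comparison of day 10 with day 3, nor from cell state in that of ESCs with day 10, since ESCs, MEFs and day 3 shared rows that held no day 10 well. ESCs also differed from the cells of day 10 in doxycycline, vitamin C, virus and sort. Cont and Sm3CA of a day shared rows.

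Fibroblast growth factors bind receptor tyrosine kinases at the cell surface, and the signal runs through RAS, RAF and MEK to ERK, which enters the nucleus and changes transcription. ERK activity raises its own brakes in many cells: Sprouty and Spred proteins act on the RAS-RAF step, and DUSP6 removes the activating phosphates from ERK in the cytoplasm. Etv4 and Etv5 are ETS factors that are induced by FGF signalling in many tissues. In mouse ESCs, FGF4 is the main FGF made by the cells themselves, and ERK signalling primes them to leave the naive pluripotent state.

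The libraries held 1008596 to 2296059 reads. A normalized count below is a read count divided by the library's DESeq2 size factor, and log2 fold changes (± SE), with adjusted p-values, come from edgeR's quasi-likelihood test over all genes. A gene with at most 3 reads in every library of a group is called undetected there. The summed normalized counts of 8 fibroblast markers were 4029 to 5696 in MEFs, 339 to 1498 in reprogramming cells and 3.65 to 9.03 in ESCs, where Col1a2, Col3a1 and Prrx1 were at 0. Those of 7 pluripotency markers, Fgf4 among them, were 8.89 to 11.9 in MEFs, 16.7 to 107 on days 3 to 8, 361 to 915 in Cont and 934 to 2142 in Sm3CA on day 10, and 28054 to 53459 in ESCs. Both labelled cell types thus carried their own markers, though Dppa5a alone, at 23195 to 48415, made up most of the ESC sum. Keratinocyte markers (4 genes) summed to 159 to 1029 in reprogramming cells, at most 2.59 in MEFs and 0 in ESCs, but Krt14 and Krt6a made up nearly all of that sum, and Krt5 and Krt15 were at most 1.85 and 3.25 in any library. Glia and neuron markers (4 genes) summed to 202 to 1894 in reprogramming cells and 57.8 to 85.8 in MEFs, blood markers (4 genes) to 6.21 to 246 and 145 to 281, and primitive endoderm and endothelium markers to at most 36.3 and 18.1 in any library. Their part in the values below was not tested. ESC replicate 2 stood apart in several of the 10 genes and was the shallowest ESC library, with 1104551 reads and 10935 genes read, against 12382 and 11613 in the other two. It also stood apart in Nanog, at 21.7 normalized counts against 299 and 285, and in Sox2, at 997 against 227 and 271. Results that rest on ESC replicate 2 are given with and without it where the call changed or the log2 value moved by over 1.5 times. The same holds for Fgfr1, Etv4 and Spry1. For Spred1 in ESCs against MEFs the range with 1 library left out is given instead.

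**Figure D1:**
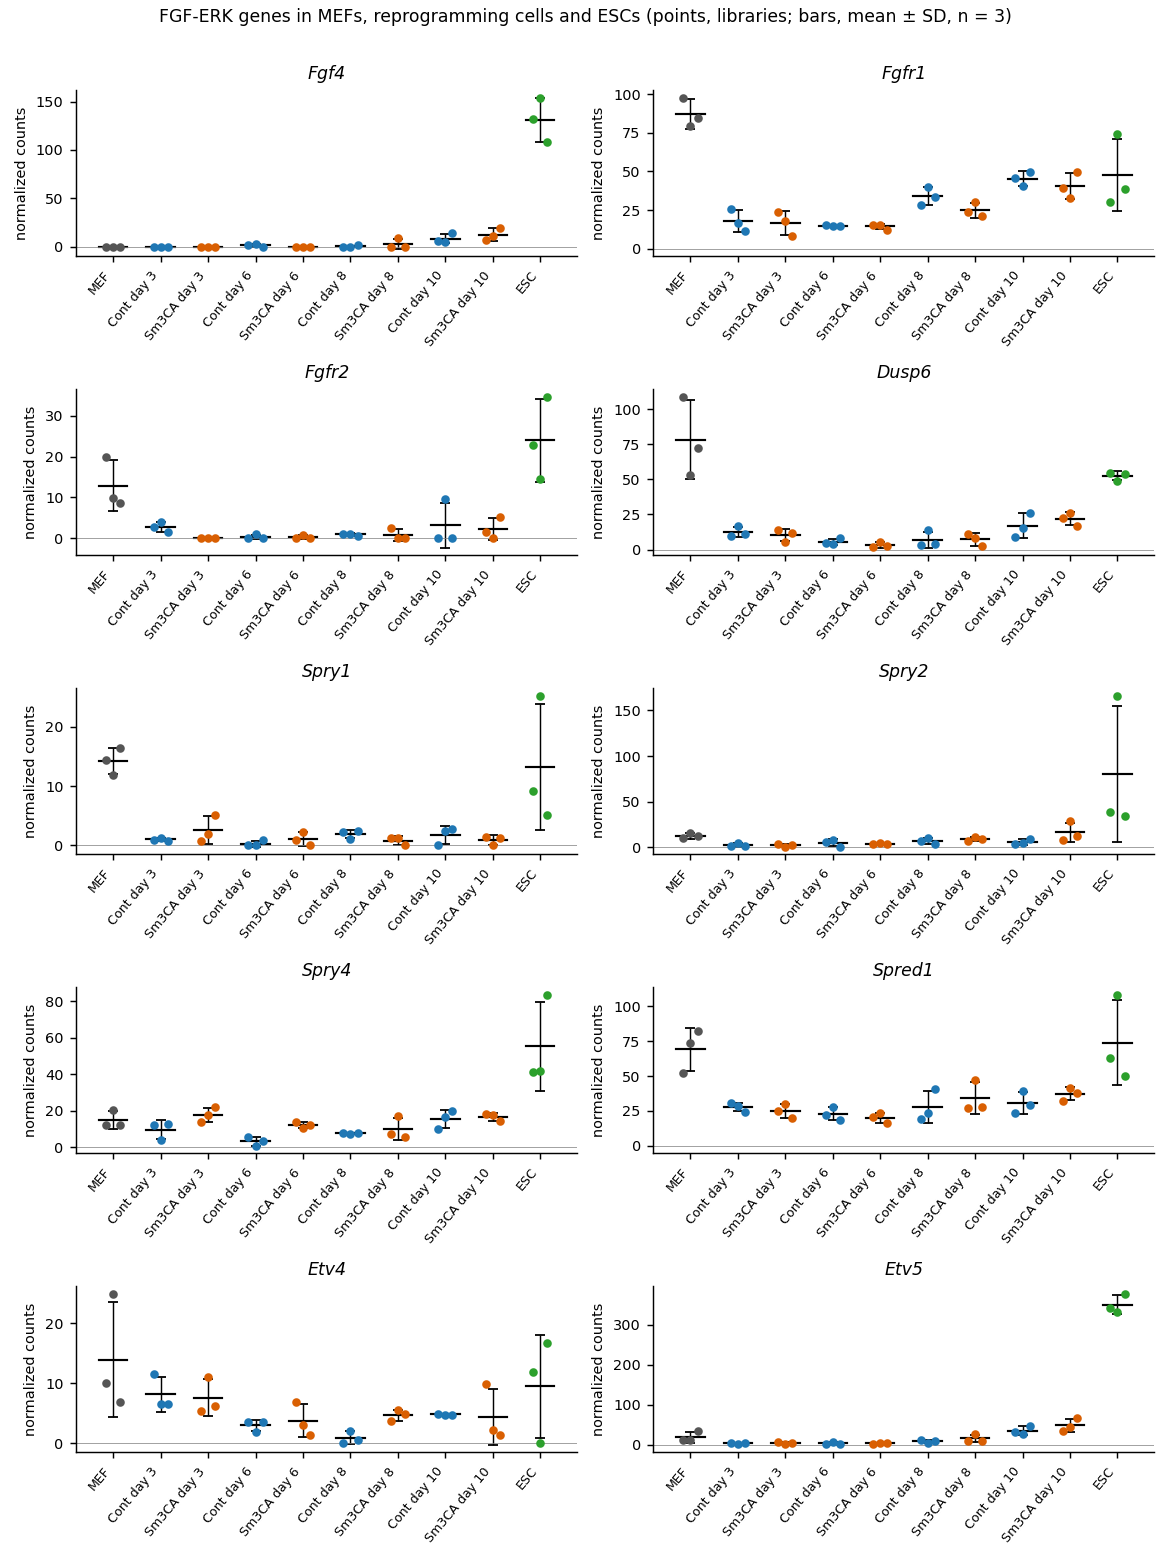
Normalized counts (y axis, linear, a scale of its own for each gene) of the 10 genes in the 10 groups (x axis). Points are libraries, horizontal lines means and vertical bars SD (n = 3). Etv5 and Fgf4 stand far above all other groups in ESCs, with means of 351 and 131, and Dusp6 and Spred1 are high in MEFs and ESCs and low between them.

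STRT counts transcripts by their 5′ ends, so the promoters are shown for the ligand gene and for 1 gene each of the phosphatase, Sprouty and ETS families, whose levels the results turn on. RefSeq promoters of the GRCm38.p6 build were matched for 7 of the 10 genes. The 250 bases before the annotated start are shown, 5′ to 3′ on the strand of the gene, with the ETS core GGAA and its reverse complement TTCC in capitals.
Fgf4, plus strand, chr7:144861136-144861385: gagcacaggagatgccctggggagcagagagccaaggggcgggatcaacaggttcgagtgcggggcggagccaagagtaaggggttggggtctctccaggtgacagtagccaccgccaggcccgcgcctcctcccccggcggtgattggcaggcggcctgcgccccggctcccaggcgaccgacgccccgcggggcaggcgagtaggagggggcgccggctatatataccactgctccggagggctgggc
Dusp6, plus strand, chr10:99262981-99263230: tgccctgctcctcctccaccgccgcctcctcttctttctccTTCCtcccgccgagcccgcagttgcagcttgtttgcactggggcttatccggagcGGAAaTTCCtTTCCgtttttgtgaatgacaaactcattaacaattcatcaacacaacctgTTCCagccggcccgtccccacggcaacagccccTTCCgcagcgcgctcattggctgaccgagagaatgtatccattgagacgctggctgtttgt
Spry2, minus strand, chr14:105896820-105897069: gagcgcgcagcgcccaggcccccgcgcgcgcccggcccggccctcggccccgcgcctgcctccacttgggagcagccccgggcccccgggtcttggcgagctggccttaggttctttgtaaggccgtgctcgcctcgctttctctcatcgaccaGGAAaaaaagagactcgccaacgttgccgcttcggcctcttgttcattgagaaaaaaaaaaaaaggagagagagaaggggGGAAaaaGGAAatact
Etv5, minus strand, the downstream of its 2 annotated starts, chr16:22438369-22438618: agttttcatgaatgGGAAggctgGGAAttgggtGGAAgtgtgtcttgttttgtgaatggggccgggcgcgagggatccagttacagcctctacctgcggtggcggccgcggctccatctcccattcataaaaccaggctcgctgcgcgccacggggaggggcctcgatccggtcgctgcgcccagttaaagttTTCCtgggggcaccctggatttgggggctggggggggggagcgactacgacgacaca
GGAA was counted on both strands, overlaps included. The Dusp6 window held 6 copies, the Etv5 window shown 4, the Spry2 window 3 and the Fgf4 window 0, against a median of 3 over all 32841 promoters of this length, 93.5% of which hold at least 1. The window of the upstream Etv5 start, which is not shown, held 0. Of the 8 promoters of the 7 genes, 6 held it. The longer form CCGGAA, found in 12% of all promoters, and the SMAD box CAGAC, found in 42.2%, were in 0 of the 8. These letters describe the windows and are not evidence of binding.

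The first comparison asked how the pathway stood in reprogramming cells shortly after induction. On day 3, 7 of the 10 genes passed the test against MEFs in Cont and 7 in Sm3CA, each of them lower on day 3. Of these, Fgfr2 and Spry1 did not pass the filter on low counts in the reprogramming libraries alone. They entered this fit through their MEF or ESC reads, so they could hardly be called other than lower on day 3. Receptors, the phosphatase, 2 of the 3 Sprouty genes, Spred1 and Etv5 fell, whereas Spry4 and Etv4 did not pass the test and Fgf4 was undetected. Of all 10979 genes tested, 43.4% were called in Cont, 20.9% as lower, and 43.1% were called in Sm3CA, 20.7% as lower. The median log2 fold change of the 10 genes was -2.11 in Cont and -2.04 in Sm3CA, against 0.00 and 0.00 over all genes tested, and -2.12 and -2.09 with Fgf4 left out and Fgfr2 in Sm3CA at its bound. Both comparisons use the same 3 MEF libraries. In a sorted bulk sample, fewer cells that express a gene and less RNA in each cell cannot be told apart. The fibroblast marker sum fell alongside, to 396 to 588 in Cont and 432 to 594 in Sm3CA on day 3, and its part in these differences was not tested.

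Fgfr1, the main FGF receptor gene of fibroblasts (chr8:25518759-25575718), had 97.8, 79.2 and 84.7 normalized counts in MEFs, 25.9, 16.9 and 11.4 in Cont and 23.8, 17.6 and 8.35 in Sm3CA on day 3. All MEF libraries lay above all day 3 libraries. It fell by 2.15 ± 0.32 on the log2 scale in Cont (adjusted p = 4.85e-07) and by 2.24 ± 0.32 in Sm3CA (adjusted p = 2.08e-07). Its level stayed at 12.1 to 15.5 in the 6 libraries of day 6.

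Fgfr2, which encodes a second receptor of the family (chr7:130162451-130266808), was read 18, 9 and 10 times in MEFs, 3, 3 and 2 times in Cont and 0 times in all 3 Sm3CA libraries on day 3. These are counts at the limit of detection. The MEF level was 4.85 times that of Cont, with an exact 95% interval of 2.22 to 12.1 that covers counting error only (adjusted p = 0.049). It was at least 4.68-fold higher than in Sm3CA, with 3 reads per library taken as the limit (adjusted p = 0.000298). The Cont call was lost when any of the 6 libraries was left out, with adjusted p-values of 0.0553 to 0.183, and in DESeq2 (adjusted p = 0.0508). A replicate block also ended it (adjusted p = 0.06).

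Dusp6, the ERK phosphatase gene (chr10:99263231-99267489), fell furthest among the genes detected in both series on day 3. It had 109, 53.2 and 72.6 normalized counts in MEFs, 9.81, 16.9 and 11.4 in Cont and 13.8, 5.56 and 11.5 in Sm3CA on day 3. The groups did not overlap, and the gene fell by 2.53 ± 0.42 on the log2 scale in Cont (adjusted p = 4.79e-06) and by 2.78 ± 0.43 in Sm3CA (adjusted p = 1.08e-06). Levels were lower still on day 6, at 3.83 to 7.91 in Cont and 1.71 to 5.43 in Sm3CA.

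Among the Sprouty genes, Spry1 (chr3:37639947-37644599) had 14.4, 11.9 and 16.4 normalized counts in MEFs but 1 read in each Cont library on day 3, and 1, 2 and 5 reads in Sm3CA. The MEF level was 15.03 times the Cont level (exact 95% counting interval 4.81 to 75.7, adjusted p = 0.000952). In Sm3CA it fell by 2.37 ± 0.76 on the log2 scale (adjusted p = 0.0108). Spry2 (chr14:105891947-105896819) had 10.0, 16.3 and 12.1 normalized counts in MEFs, 1.78, 5.19 and 1.63 in Cont and 3.84, 0.927 and 3.13 in Sm3CA. It fell by 2.12 ± 0.71 in Cont (adjusted p = 0.0134) and by 2.09 ± 0.69 in Sm3CA (adjusted p = 0.0126). These calls rest on few reads: the Spry2 call in Cont was lost without Cont day 3 replicate 1 or 3 (adjusted p = 0.0546 and 0.0624), that in Sm3CA without Sm3CA day 3 replicate 2 (adjusted p = 0.0588), and that of Spry1 in Sm3CA without Sm3CA day 3 replicate 1 (adjusted p = 0.0749).

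Spry4 behaved otherwise. It had 12.2, 20.6 and 12.1 normalized counts in MEFs, 12.5, 3.89 and 13.0 in Cont and 13.8, 17.6 and 21.9 in Sm3CA on day 3, and both day 3 groups overlapped MEFs. Its log2 differences from MEFs were -0.42 ± 0.46 in Cont (95% interval -1.32 to 0.49) and 0.36 ± 0.44 in Sm3CA (95% interval -0.50 to 1.21). Spred1, which encodes a membrane-bound relative of the Sprouty proteins (chr2:117121071-117182279), had 52.2, 73.8 and 82.1 normalized counts in MEFs. It had 30.3, 28.5 and 24.4 in Cont and 24.6, 29.7 and 19.8 in Sm3CA, and fell by 1.21 ± 0.30 (adjusted p = 0.0012) and by 1.37 ± 0.30 (adjusted p = 0.000311).

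Of the ETS factors, Etv5 (chr16:22381313-22439570) had 11.1, 10.9 and 34.6 normalized counts in MEFs, 5.35, 1.30 and 3.25 in Cont and 7.68, 0.927 and 4.17 in Sm3CA on day 3. It fell by 2.33 ± 0.59 in Cont (adjusted p = 0.00131) and by 1.99 ± 0.55 in Sm3CA (adjusted p = 0.00325). MEF replicate 3, the high library, carried both calls: without it the log2 fold changes were -1.49 (adjusted p = 0.0752) and -1.15 (adjusted p = 0.15), and 5 of the 10 genes were called in Cont and 6 in Sm3CA. Etv4 (chr11:101769747-101785310) had 10.0, 25.0 and 6.91 normalized counts in MEFs, which overlapped 6.49 to 11.6 in Cont and 5.37 to 11.1 in Sm3CA.

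**Figure D2:**
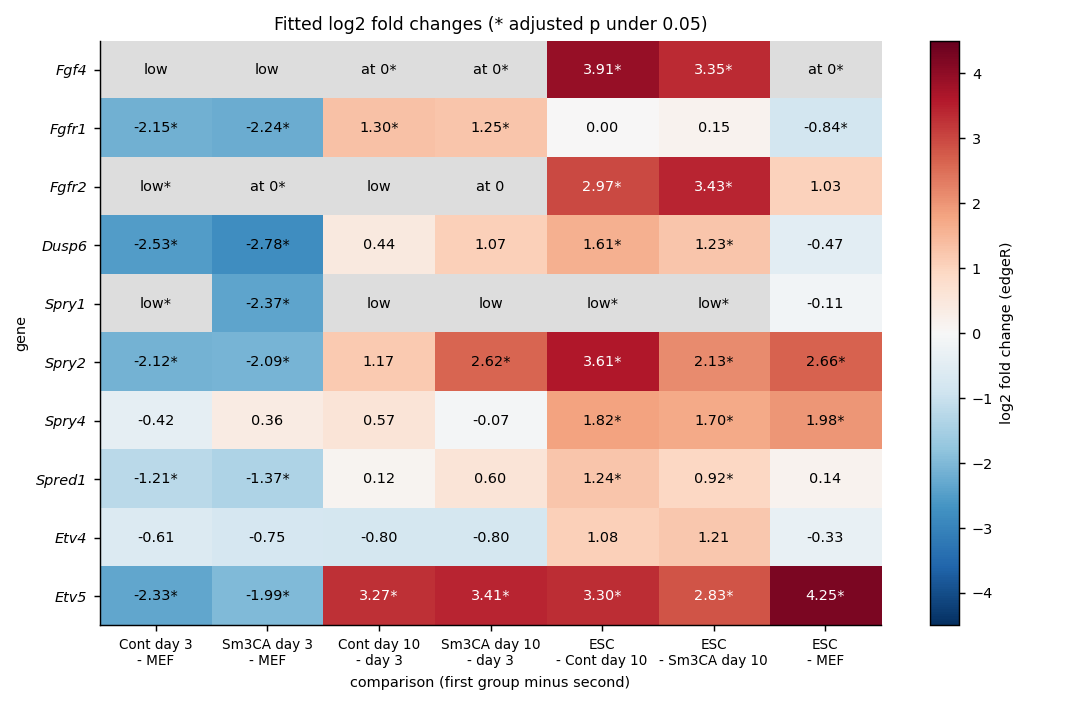
Fitted log2 fold changes (colour and number) of the 10 genes (y axis) in 7 comparisons (x axis, first group minus second). An asterisk marks an adjusted p under 0.05. Grey fields have no fitted value shown, because a group was at 0 reads ("at 0") or at most 3 reads per library ("low"). The first 2 columns are blue with an asterisk for Fgfr1, Dusp6, Spry2, Spred1 and Etv5, and both columns of ESCs against day 10 are red with an asterisk for 7 genes.

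The second comparison followed each vector series from day 3 to day 10. In Cont, 3 of the 10 genes passed the test and in Sm3CA 4, and each of them rose. Fgf4 is among them in both series. With 0 reads in every day 3 library, Fgf4 could only be called as a rise. Of all genes tested, 19.0% were called in Cont, 10.7% as higher, and 26.4% in Sm3CA, 14.2% as higher. The median log2 fold change of the 10 genes was 0.69 in Cont and 1.16 in Sm3CA, against 0.08 and 0.06 over all genes, and 0.57 and 0.84 where genes at 0 on day 3 were put at their bound and Spry1, undetected on both days in Cont, was left out there. Etv5, Fgfr1 and Fgf4 rose in both series and Spry2 in Sm3CA.

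Etv5 made the largest rise of a gene with reads at both ends. In Cont its mean was 3.30 ± 2.03 (SD, n = 3) on day 3, 3.22 ± 3.08 on day 6 and 8.56 ± 3.81 on day 8, and the day 10 libraries had 30.9, 26.3 and 48.1 normalized counts. In Sm3CA it was 4.26 ± 3.38, 3.19 ± 2.04 and 15.6 ± 9.33, and then 35.0, 43.7 and 66.4. The day 10 libraries lay above all day 3 libraries in both series, with log2 fold changes of 3.27 ± 0.55 in Cont (adjusted p = 2.25e-05) and 3.41 ± 0.51 in Sm3CA (adjusted p = 2.03e-06). The pluripotency marker sum rose between the same days, and its part in these changes was not tested.

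Fgf4 (chr7:144861386-144865245), a marker of pluripotent cells as well as a ligand, was at 0 reads in every MEF and day 3 library. On day 6 it had 2, 3 and 0 reads in Cont and 0 in all Sm3CA libraries, and on day 8 it had 0, 0 and 2 reads in Cont. Sm3CA on day 8 had 0, 14 and 0 reads. All 14 came from replicate 2, the library with the lowest share of the mitochondrial ribosomal RNA mt-Rnr2, 2.04% against 5.99% and 8.73% in the other two. The summed other pluripotency markers of that library were 83.9, between 67.4 and 94.4 in the other two. The part of that library's RNA in the Fgf4 reads was not tested. By day 10 all 6 libraries had reads, 6.17, 4.78 and 14.1 normalized counts in Cont and 7.01, 10.9 and 19.5 in Sm3CA. Day 10 was at least 2.79-fold higher than day 3 in Cont (adjusted p = 0.00295) and at least 4.56-fold higher in Sm3CA (adjusted p = 0.000389), with 3 reads per library as the limit on day 3.

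Fgfr1 rose again after day 6, when its mean was lowest in both series. The libraries of day 3 and day 6 overlapped, and these days were not tested against each other. In Cont it had 28.3, 40.1 and 33.4 normalized counts on day 8 and 45.7, 40.6 and 49.9 on day 10, and in Sm3CA 23.5, 30.02 and 21.0 and then 39.3, 32.8 and 49.5. The log2 fold change from day 3 to day 10 was 1.30 ± 0.33 in Cont (adjusted p = 0.00379) and 1.25 ± 0.34 in Sm3CA (adjusted p = 0.00467). Without Cont day 3 replicate 3 the Cont value was 1.03 (adjusted p = 0.0508).

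Spry2 had 8.41, 28.4 and 13.0 normalized counts in Sm3CA on day 10, above all Sm3CA libraries of day 3, with a log2 fold change of 2.62 ± 0.68 (adjusted p = 0.0033). Replicate 2 was the high library, and without it the value was 1.97 (adjusted p = 0.0677) and 3 of the 10 genes were called. In Cont, Spry2 had 3.70, 4.78 and 9.42 and overlapped day 3 (log2 fold change 1.17 ± 0.79, adjusted p = 0.32). The test of whether the series differed in this rise is given with the vector comparison. The inhibitor genes Dusp6 and Spred1 did not pass the test in either series. Dusp6 had 8.64, 15.5 and 26.4 normalized counts in Cont and 22.4, 26.2 and 16.9 in Sm3CA on day 10, with log2 differences from day 3 of 0.44 ± 0.47 and 1.07 ± 0.47 (adjusted p = 0.56 and 0.0837). Spry1 and Fgfr2 stayed near the limit of detection, with at most 5 and 8 reads in any reprogramming library.

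The third comparison set the ESCs against the cells of day 10. Against each series 8 of the 10 genes passed the test, each of them higher in ESCs. Fgfr2 and Spry1 are among them. Having entered the fit through MEF or ESC reads, these genes could hardly be called other than higher in ESCs. Of all genes tested, 51.8% were called against Cont, 21.5% as higher in ESCs, and 45.8% against Sm3CA, 18.6% as higher. The median log2 fold change of the 10 genes was 2.26 against Cont and 1.92 against Sm3CA, while that of all genes was -0.15 in both. Without ESC replicate 2, 7 genes were called against Cont and 6 against Sm3CA. The comparisons share the 3 ESC libraries.

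Etv5 had 342, 332 and 378 normalized counts in ESCs, 3.30 ± 0.37 above Cont (adjusted p = 5.43e-10) and 2.83 ± 0.36 above Sm3CA (adjusted p = 1.80e-08) on the log2 scale. Fgf4 had 132, 154 and 108, which was 3.91 ± 0.60 above Cont (adjusted p = 1.32e-06) and 3.35 ± 0.58 above Sm3CA (adjusted p = 1.26e-05). In both genes every ESC library lay above every library of the other 9 groups. The Fgf4 call against Sm3CA was lost in DESeq2 (adjusted p = 0.0759).

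The Sprouty genes were high in ESCs with wide spread. Spry2 had 39.3, 166 and 34.7 normalized counts, and replicate 2 stood far above the other two. Its log2 fold change was 3.61 ± 0.57 against Cont (adjusted p = 1.09e-06) and 2.13 ± 0.51 against Sm3CA (adjusted p = 0.000626), and without that replicate it was 2.64 (adjusted p = 0.000162) and 1.14 (adjusted p = 0.0734). Spry4 had 41.1, 41.5 and 83.6, above all other libraries, 1.82 ± 0.41 above Cont (adjusted p = 0.000308) and 1.70 ± 0.42 above Sm3CA (adjusted p = 0.000908). Spry1 had 9.13, 25.3 and 5.14 normalized counts against at most 3 reads in every day 10 library. Its ESC level was 6.25 times that of Cont (exact 95% counting interval 2.38 to 20.7, adjusted p = 0.00707) and 13.8 times that of Sm3CA (3.49 to 120, adjusted p = 0.0022), and without ESC replicate 2 the call against Cont was lost (log2 fold change 2.01, adjusted p = 0.0745) and that against Sm3CA was not (2.97, adjusted p = 0.0252).

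Dusp6 had 54.8, 48.8 and 54.0 normalized counts in ESCs, above every day 10 library, with log2 differences of 1.61 ± 0.42 from Cont (adjusted p = 0.00137) and 1.23 ± 0.42 from Sm3CA (adjusted p = 0.0135). Scaling by total counts alone, which shifted the median of all genes by -0.38, gave 0.87 from Sm3CA (adjusted p = 0.0968), and without Sm3CA day 10 replicate 3 the call was also lost (adjusted p = 0.0583). Spred1 had 63.0, 108 and 50.1, and was 1.24 ± 0.31 above Cont (adjusted p = 0.000894) and 0.92 ± 0.31 above Sm3CA (adjusted p = 0.0125). The second of these calls was lost without ESC replicate 2 (0.63, adjusted p = 0.112), without Sm3CA day 10 replicate 1 (0.83, adjusted p = 0.053), with total counts (0.54, adjusted p = 0.187) and in a fit of these groups alone (0.90, adjusted p = 0.0569). Fgfr2 had 22.8, 14.5 and 34.7 normalized counts in ESCs, against 0, 8 and 0 reads in Cont and 1, 0 and 4 in Sm3CA on day 10. The log2 fold change was 2.97 ± 0.86 against Cont (adjusted p = 0.00375) and 3.43 ± 0.92 against Sm3CA (adjusted p = 0.00236). Single libraries held most day 10 reads. Without Cont day 10 replicate 2 the ESC level was at least 7.35-fold higher than Cont, with 3 reads per library as the limit, and without Sm3CA day 10 replicate 3 it was 40.3 times that of Sm3CA, where 1 read remained (exact 95% counting interval 6.96 to 1617).

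Both exceptions were genes whose ESC libraries overlapped day 10. Fgfr1 had 30.1, 74.1 and 38.6 normalized counts in ESCs, with log2 differences of 0.00 ± 0.31 from Cont (95% interval -0.61 to 0.62) and 0.15 ± 0.32 from Sm3CA (95% interval -0.47 to 0.77). Replicate 2 was the high library, and without it the differences were -0.35 and -0.23 (adjusted p = 0.391 and 0.608). Etv4 had 11.9, 0 and 16.7, the 0 in replicate 2, with log2 differences of 1.08 ± 0.74 and 1.21 ± 0.77 (adjusted p = 0.229 and 0.201). Without that replicate they were 1.60 and 1.72 (adjusted p = 0.0558 and 0.0529). Without Sm3CA day 10 replicate 1 the second was 2.43 (adjusted p = 0.0466).

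ESCs against MEFs, the 2 end states, gave a mixed picture. Of the 10 genes, 4 were higher and 1 was lower in ESCs. Fgf4, with 0 reads in every MEF library, could only be called higher. Of all genes tested, 59.6% were called, 29.1% as higher and 30.5% as lower in ESCs. The median log2 fold change of the 10 genes was 0.59, against 0.00 over all genes. Etv5 was 4.25 ± 0.39 higher on the log2 scale (adjusted p = 1.73e-12), Spry2 2.66 ± 0.51 (adjusted p = 2.34e-05) and Spry4 1.98 ± 0.41 (adjusted p = 7.25e-05), and Fgf4 was at least 42.9-fold higher (adjusted p = 4.80e-10). Without ESC replicate 2, Spry2 was 1.65 higher (adjusted p = 0.00688). Fgfr1 fell by 0.84 ± 0.30 (adjusted p = 0.0137), and this call was lost without ESC replicate 1 (adjusted p = 0.112) or 3 (adjusted p = 0.0588). Without the high ESC replicate 2 the value was -1.24 (adjusted p = 0.000919), and with total counts -1.10 (adjusted p = 0.00317). Dusp6, Spred1, Spry1, Etv4 and Fgfr2 overlapped between the 2 states. Their log2 differences and 95% intervals were -0.47 (-1.20 to 0.26), 0.14 (-0.42 to 0.71), -0.11 (-1.40 to 1.18), -0.33 (-1.63 to 0.96) and 1.03 (-0.38 to 2.44). Without ESC replicate 2, Spry1 was at -0.84 and Etv4 at 0.15 (adjusted p = 0.369 and 0.866). With 1 library left out, Spred1 ranged from -0.17 to 0.35.

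The order of the group means shows the same shapes gene by gene. Fgf4, Etv5, Spry2 and Spry4 were highest in ESCs, whose libraries did not overlap those of the next group, Sm3CA on day 10 for the first 3 of these genes and Sm3CA on day 3 for Spry4. Fgfr1 was highest in MEFs, without overlap with ESCs in second place. MEFs and ESCs led for Dusp6, Spred1, Fgfr2, Spry1 and Etv4 and overlapped each other in all 5. For Dusp6 and Spred1 the lower of these 2 groups did not overlap Sm3CA on day 10, the next group. Below that, neighbours in the order overlapped in every gene but 2, Spry4 between Cont on day 8 and on day 6 and Etv4 between Sm3CA on day 3 and Cont on day 10.

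The fourth comparison asked whether Smad3CA changed these genes on matched days. With edgeR, 0 of the 8 genes tested were called on day 3, 6, 8 or 10, where 0.0195%, 0.00977%, 1.04% and 3.58% of all 10237 genes were called. DESeq2 also called 0 on each day. At an unadjusted p under 0.05 there were 0, 1, 1 and 1 genes. Fgfr2 and Spry1 had too few reads for the test. The change of the vector difference from day 3 to day 10 was called for 0 of the 8 in either tool, 0 at an unadjusted p under 0.05, and for 1.01% of all genes. A p-value above the threshold does not show equal levels, so intervals are given.

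Spry4 on day 6 was the widest of these differences in a gene with reads in every library. It had 5.54, 0.957 and 3.51 normalized counts in Cont and 13.7, 10.9 and 12.1 in Sm3CA, with no overlap. The log2 difference was 1.78 ± 0.54 (95% interval 0.72 to 2.83), with an adjusted p of 0.954 over all genes. On day 3 the Sm3CA libraries also lay above those of Cont (0.77, 95% interval -0.11 to 1.66), while the groups overlapped on day 8 (0.42, -0.51 to 1.35) and on day 10 (0.11, -0.78 to 1.00). Etv4 on day 8 had 0, 2 and 1 reads in Cont and 6, 9 and 6 in Sm3CA, 5.47 times as much (exact 95% counting interval 1.63 to 28.6, adjusted p = 0.166).

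Spry2 on day 10, the other gene with an unadjusted p under 0.05, had a log2 difference of 1.46 ± 0.61 (95% interval 0.28 to 2.65, adjusted p = 0.201) and overlapping groups. Without Sm3CA day 10 replicate 2, the high library, it was 0.83 (adjusted p = 0.689). The change of its vector difference from day 3 was 1.45 ± 1.05 (adjusted p = 0.643). Etv5 differed by 0.86 on day 8 (95% interval -0.12 to 1.84) and by 0.47 on day 10 (-0.36 to 1.30). Fgf4 on day 10 differed by 0.55 (-1.04 to 2.14). Fgfr1, Dusp6 and Spred1 had intervals that held 0 on all 4 days, for example -0.30 to 0.82 for Spred1 on day 8.

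**Figure D3:**
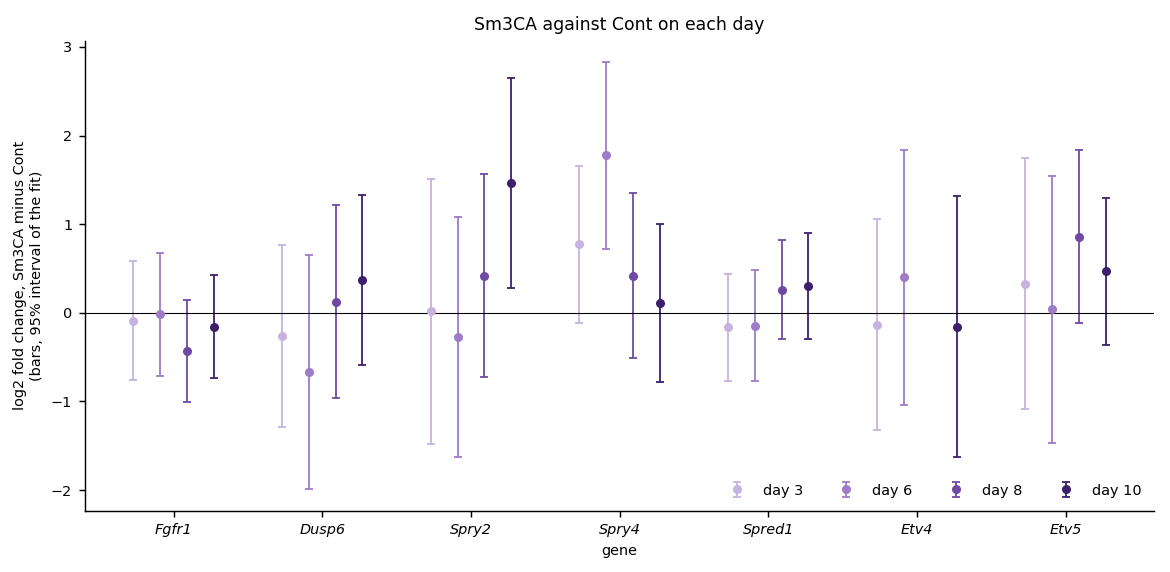
Log2 fold change of Sm3CA minus Cont (y axis) for 7 genes (x axis) on days 3, 6, 8 and 10 (light to dark). Points are edgeR estimates and bars their 95% intervals. Etv4 on day 8 is left out because Cont had at most 3 reads per library, and Fgf4, Fgfr2 and Spry1 are left out for low reads on several days. Most intervals hold 0, and those of Spry4 on day 6 and Spry2 on day 10 lie above it, the latter with 1 high Sm3CA library.

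Other genes of the pathway were followed in a list of 56 ligands, receptors, cascade members, inhibitors and targets, of which 55 were in the table and 38 were tested with the state and time comparisons. On day 3, 19 of the 38 were called against MEFs in Cont, 16 lower and 3 higher, and 16 in Sm3CA, 13 lower and 3 higher. Over all genes 43.4% and 43.1% were called, 20.9% and 20.7% as lower and 22.6% and 22.4% as higher. The number of listed genes called in either direction thus lay near the background. The share called lower was larger, and the share called higher smaller, than over all genes. The cascade from adaptor to kinase had 8 of 18 genes lower and 1 higher in Cont, and 6 lower in Sm3CA. Fgf7, a ligand made by mesenchymal cells, fell from 178 ± 59.9 normalized counts (SD, n = 3) in MEFs to 13.1 ± 5.81 in Cont (log2 fold change -3.70 ± 0.42, adjusted p = 1.01e-09) and 5.44 ± 3.61 in Sm3CA (-4.95 ± 0.46, adjusted p = 9.49e-12). Elk3, an ETS factor gene, fell by 2.66 ± 0.38 and by 2.29 ± 0.37 on the log2 scale (adjusted p = 2.56e-07 and 2.30e-06). The ligand gene Fgf18 rose, by 2.29 ± 0.58 in Cont (adjusted p = 0.00132) and 2.82 ± 0.56 in Sm3CA (adjusted p = 7.62e-05).

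From day 3 to day 10, 5 of the 38 listed genes rose and 1 fell in Cont, and 6 rose and 4 fell in Sm3CA. These numbers were no larger in share than the 19.0% and 26.4% called over all genes, of which 8.35% and 12.2% fell. Rps6ka1, which encodes a kinase activated by ERK, rose by 2.24 ± 0.60 in Cont (adjusted p = 0.00589) and 2.50 ± 0.51 in Sm3CA (adjusted p = 0.000256). Dusp9, another ERK phosphatase gene, fell from 21.6 ± 10.95 to 3.03 ± 2.57 normalized counts in Cont (log2 fold change -2.82 ± 0.61, adjusted p = 0.0008) and from 20.5 ± 4.95 to 4.56 ± 1.69 in Sm3CA (-2.14 ± 0.58, adjusted p = 0.00515), whereas Dusp6 did not pass the test in either. In ESCs Dusp9 stood at 23.5 ± 9.35, above Cont on day 10 by 2.90 ± 0.62 (adjusted p = 0.000142).

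In ESCs, 6 of the 38 listed genes were higher and 12 lower than in Cont on day 10, and 5 were higher and 10 lower than in Sm3CA. Over all genes 51.8% and 45.8% were called, 30.3% and 27.2% as lower. Of the 8 tested effectors and targets, 7 were lower than in Cont, 6 lower than in Sm3CA, and 6 lower and 1 higher than in MEFs. Phlda1, an early response gene, had 58.5 ± 20.6 normalized counts in MEFs, 45.1 ± 14.5 in Cont on day 10 and 1.34 ± 0.448 in ESCs, with 1 read at most in an ESC library. Ets1, an ETS factor gene, had 48.0 ± 16.1 in MEFs and 0 in ESCs. Etv5, a member of the same factor class, was far higher in ESCs than in either. Gab1, the gene of a docking protein of receptor kinases, was 3.47 ± 0.46 higher in ESCs than in MEFs (adjusted p = 1.88e-08), 3.70 ± 0.48 higher than in Cont (adjusted p = 1.77e-08) and 2.59 ± 0.44 higher than in Sm3CA on day 10 (adjusted p = 5.26e-06). Against MEFs, 9 of the 38 were higher and 15 lower in ESCs, where 59.6% of all genes were called.

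**Figure D4:**
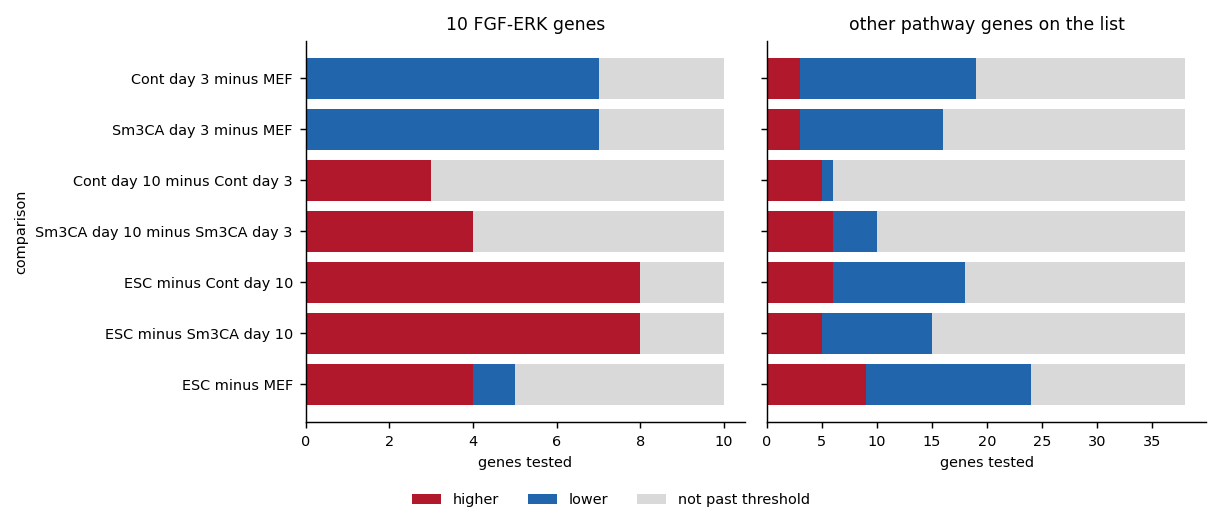
Genes tested (x axis, count) that were higher (red), lower (blue) or not past the threshold (grey) in each of 7 comparisons (y axis), for the 10 genes (left) and the other listed pathway genes (right). The left panel is all blue or grey for day 3 against MEFs and all red or grey for ESCs against day 10. In the latter, 12 and 10 of the 38 listed genes were lower than in Cont and Sm3CA, where 30.3% and 27.2% of all genes were called lower.

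On matched days 0, 0, 0 and 1 of the 36 listed genes in the vector fit were called on days 3, 6, 8 and 10, and 0 for the change of the vector difference, by edgeR and by DESeq2 alike. At an unadjusted p under 0.05 edgeR gave 3, 1, 4 and 6, and 2 for the change. The call was Fgf7 on day 10, at 50.1 ± 26.6 normalized counts in Cont and 15.1 ± 9.79 in Sm3CA (log2 fold change -1.67 ± 0.44, adjusted p = 0.0212). Fgf7 had risen by 1.96 ± 0.43 from day 3 to day 10 in Cont (adjusted p = 0.000922). The fibroblast marker sum on day 10 was 543 to 1498 in Cont and 514 to 734 in Sm3CA, and its part in the Fgf7 difference was not tested.

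Genes with the most similar course were sought among 6584 genes by Pearson's r of log2(mean normalized count + 1) over the 10 group means, as a description of points that share libraries. Fgf4 was closest to Tle4 (r = 0.98), Nanog (0.98) and Esrrb (0.976), the last 2 of which encode pluripotency factors. Etv5 was closest to Acp6 (0.988), Pdk1 (0.975) and Zmym2 (0.97). Dusp6 was closest to Lamtor4 (0.975), which encodes a part of the Ragulator complex at the lysosome, Fgfr1 to Plac8 (0.985), Spry2 to H2afv (0.982) and Spred1 to Ccrn4l (0.982). The highest values for Spry4 and Etv4 were lower, with Rbm14 (0.935) and Nudt4 (0.927). Fgfr2 and Spry1 were closest to Pddc1 (0.95) and Nedd4 (0.971). Fgf4, Fgfr2 and Spry1 were detected in only 4, 5 and 4 of the 10 groups, so their values rest on few groups.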

How the data were processed

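Cells of 10 groups, with 3 biological replicates each, had been profiled by STRT RNA-seq in 84 wells. The deposited values are raw counts of the authors' reads for each gene in each well, reads and not molecules, so amplified copies are counted more than once. Per the labels' processing notes, Bowtie 0.12.9, DESeq2 1.6.3 and the mm10 build were used; the annotation version is not given in the sources used here, nor is the handling of strand or of reads that fit several genes. Each replicate's wells, 3 or, on day 10, 2, were added up, which gave 30 libraries, and all wells were used. A well held 195330 to 902989 reads.

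Tests used edgeR 4.0.16 under R 4.3.3 (TMM, filterByExpr, glmQLFit, glmQLFTest, Benjamini-Hochberg, threshold 0.05). State and time comparisons came from 1 fit of the 30 libraries over 10979 genes, and vector comparisons from a fit of the 24 reprogramming libraries over 10237 genes. The SE was taken from the F statistic, and 95% intervals assume a normal error. Normalized counts used the size factors of DESeq2 1.42.0 over all libraries. Exact permutation tests of 3 libraries against 3 cannot go below 0.1 and are not quoted. Folds against groups at 0 reads were computed against 3 reads per library. Counting intervals (95%, exact) condition on the total reads of both groups and cover counting error only. Steps were tested on simulated counts. Positions and promoters are from RefSeq on GRCm38.p6, and exons from GENCODE vM21.

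The members and all gene lists were chosen with earlier results of these data known. Named genes are the 10 members and, of the listed pathway genes, at most 4 per comparison and direction by size of change among those past the threshold, in both directions, and, for the course over groups, the 3 most similar genes with a mean of at least 20 normalized counts.

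The series' design text pairs equal replicate numbers over days within a vector series but not between vectors. Deviations of same-numbered libraries correlated at -0.119 to 0.174 (mean 0.0118) over 8628 genes between days of a series. Alternatives were other scaling, DESeq2's test, no filter, other sets of libraries, replicate blocks, a stricter threshold, and leaving out each library.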

Additional observations from a re-analysis of the deposited data

How the results depend on the processing

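Of the single-gene values, 616 of those from alternatives that keep all libraries and 597 of those with 1 library left out kept their direction and side of the threshold. In these, 6 and 21 calls were lost and 0 and 1 gained, 0 reversed, and 11 and 59 values that were never called changed sign. The number of the 10 genes called moved beyond 1.5 times in a fit of only the groups compared, to 2 for Sm3CA on day 10 against day 3 and to 5 for ESCs against Sm3CA on day 10, where that fit's filter tested fewer of them. It ranged, with 1 library left out, from 4 to 5 for ESCs against MEFs, 5 to 6 for Cont and 6 to 7 for Sm3CA on day 3 against MEFs, 2 to 3 and 3 to 4 from day 3 to day 10, and 7 to 8 and 6 to 8 for ESCs against day 10, and it was 0 for the vector in every alternative. Counts over all genes moved more. At an adjusted p of 0.01, 1146 genes were called from day 3 to day 10 in Cont, against 2088 at 0.05, and 1745 in Sm3CA, against 2899. With only the groups compared, 3485 were called for ESCs against Cont on day 10, against 5689, 3004 against Sm3CA, against 5028, 5 for the vector on day 6, against 1, and 25 on day 8, against 106. Without the filter the vector gave 11 genes on day 3, against 2, 10 on day 6, 264 on day 8, and 198 for the change from day 3 to day 10, against 103. In the fit of all 30 libraries it gave 32 on day 8, 224 on day 10, against 366, and 42 for the change. With 1 library left out the vector gave 2 genes on day 3, 0 to 1 on day 6, 21 to 523 on day 8, 176 to 450 on day 10 and 27 to 192 for the change. The cause was not tested.

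Under a replicate block, the call of Fgfr2 in Cont on day 3 was lost (log2 fold change -2.09, adjusted p = 0.06), and no other call of the 10 genes changed. With the block within a series, which the design text states, Fgfr1 and Etv5 kept their calls from day 3 to day 10 in Cont and Fgf4 was not tested there, because the filter of that fit dropped it. In Sm3CA all 4 calls were kept. Between Cont and Sm3CA, where no pairing is stated, same-numbered libraries correlated at -0.147 to 0.0792. Scaling by total counts moved the median of all genes by -0.26 for ESCs against MEFs, 0.24 for Cont from day 3 to day 10, -0.42 and -0.38 for ESCs against Cont and Sm3CA on day 10, 0.11 for the vector on day 3 and -0.14 for the change. Low reads limit Fgf4 before day 10, and Fgfr2 and Spry1 in all reprogramming cells.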
